A study of Mus musculus with 9 samples.

Results

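This account sets fibroblasts of a Bmal1-/- line against a wild-type (WT) line of the same mating scheme, by the contacts that the Dbp locus made along the genome. The arrays were chosen by their labels: 2 of the Bmal1-/- line, harvested at circadian time (CT) 22 and 34 h, and 2 of WT line 1 at the same times, with 3 further WT line 1 arrays at CT26, CT30 and CT46 as a measure of the spread. These are 7 of the 9 arrays of the series. The other 2 belong to an independent WT line 2. They served to choose windows and as an arm in an alternative fit. They were also a second wild type for the Dbp profile, the chromosome 7 contrast, the called windows and the called autosomes. Elsewhere WT means line 1.

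The assay was 4C, a form of chromosome conformation capture read on a chip. In it, crosslinked chromatin is cut with HindIII and ligated, and fragments joined to one viewpoint are amplified and hybridized to a tiling array. Each array carried 4C DNA in Cy5 and cut genomic DNA of the cells in Cy3, at 384942 probes of 59 nt. All cultures were mouse embryonic fibroblasts from embryonic day 13, which the labels place on a C57BL/6 background, and all were synchronized with dexamethasone for 2 h and harvested at the stated hour. Line 1 and the Bmal1-/- line were grown in the same medium, and line 2 in one with other serum.

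Dbp encodes a transcription factor of the PAR bZIP family and is a classic output gene of the circadian clock. BMAL1, with its partner CLOCK, binds E-box sequences and activates clock output genes, Dbp among them, in a daily rhythm. Cells without BMAL1 lack a working molecular clock. In the nucleus, active, gene-rich stretches of a chromosome tend to contact other active stretches, and inactive ones other inactive ones. The contrast between strong and weak contacts of an active gene such as Dbp is therefore a coarse measure of that partition.

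The sequence before the start of Dbp is shown because every value below is a contact of this locus. RefSeq (GRCm38.p6) places these 250 bases before the annotated start at chr7:45704997-45705246, plus strand. They are in lower case because no match had to be marked in capitals.

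Dbp: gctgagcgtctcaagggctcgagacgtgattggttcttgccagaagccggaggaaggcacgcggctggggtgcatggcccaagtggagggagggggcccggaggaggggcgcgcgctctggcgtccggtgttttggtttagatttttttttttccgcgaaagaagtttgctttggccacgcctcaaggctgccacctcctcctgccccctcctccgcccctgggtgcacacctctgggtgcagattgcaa

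The E-box CACGTG, which reads the same on both strands, was not in this window nor in the next 50 bases, which says only that these letters are absent there. Among 13 clock genes listed for the purpose, 11 matched the promoter table and 5 of these had CACGTG in a promoter window. Of all 32851 promoter windows of 300 bases, 2349 (7.15%) held it. No source used here names the genome build of the array files, so the coordinates that follow are those of the files and were not set against RefSeq positions.

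Several limits of the comparison come from its design. Each line and time had 1 array, so each arm had n = 2 only by joining CT22 and CT34, and the spread held both time and hybridization. The Bmal1-/- cells were 1 line, so genotype and line cannot be told apart. In RefSeq's table Bmal1 (listed as Arntl) lies on chromosome 7, as Dbp does. On this chromosome the loss of the protein, the altered allele and any alleles linked to it cannot be told apart. The arrays measured DNA contacts and no RNA, so neither the genotype nor the fibroblast identity could be checked against marker genes, and both rest on the labels. In the file headers, both Bmal1-/- arrays and WT CT26 share a style of array name that the other 4 line 1 arrays do not have. No source used here says what this style marks.

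The log2 ratios had different widths on different arrays: the 95th percentile off chromosome 7 was 1.80, 2.03, 1.64, 1.85 and 2.07 in WT CT22, CT34, CT26, CT30 and CT46, and 2.16 and 2.73 in Bmal1-/- CT22 and CT34. Each probe was therefore ranked within its array, from 0 to 100, and levels below are means of these percentiles over the probes of a window or region. A value near 50 is the middle of an array, and differences are in percentile points. In WT line 2 the 95th percentile off chromosome 7 was 0.51 at CT22 and 0.52 at CT34, so its signal was much narrower. Its mean percentile on chromosome 7, more than 2 Mb from the viewpoint, was 56.2 and 57.5, against 70.3 to 71.4 in line 1. The part of this narrower signal in comparisons with line 2 was not tested. With a median of 157 probes, a window of 1 Mb averaged over much of the noise of single probes.

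The array Bmal1-/- CT22 stood apart away from chromosome 7. Over 2246 windows of 1 Mb on the other autosomes, its correlation across windows with the 5 WT arrays was 0.689 to 0.757. The WT arrays correlated at 0.894 to 0.953 with each other, and Bmal1-/- CT34 at 0.874 to 0.915 with them. On chromosome 7 the same array was closer, at 0.906 to 0.922, where WT pairs had 0.958 to 0.981 and Bmal1-/- CT34 had 0.940 to 0.951. Beside the main results off chromosome 7, values without it are given.

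Over chromosome 7 as a whole, contact strength did not differ beyond the spread. Over 18784 probes more than 2 Mb from the viewpoint, the mean percentile was 70.8 in WT CT22 and 70.3 in WT CT34, and 70.9 and 72.4 in Bmal1-/- CT22 and CT34. WT CT26, CT30 and CT46 had 71.4, 71.1 and 71.0. Bmal1-/- CT22 lay inside the WT range and Bmal1-/- CT34 above it. The difference from the time-matched arrays was 1.09, with p = 0.381 in an exact two-sided permutation test of 2 against 5 arrays, which cannot go below 0.0952. The sign depended on the measure: with the share of probes above each array's 95th percentile the difference was -1.19 percentage points (exact permutation p = 0.190).

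The shape of the profile around Dbp differed more than its level. By mean percentile over both sides together, both Bmal1-/- arrays lay below the 5 arrays of WT line 1 from 1 to 2 Mb. They lay above them from 2 to 50 Mb, and their profile was flatter near the gene. These gaps were small beside the one between the WT lines: line 2 had 77.8 and 77.3 from 1 to 2 Mb and 56.0 and 56.4 from 5 to 10 Mb. The 4C peak lay in the 100 kb window from 45200001 to 45300000, and distances are counted from its centre. From 1 to 2 Mb, the 5 WT arrays (CT22, CT34, CT26, CT30, CT46) had 92.8, 92.3, 92.4, 92.3 and 91.2, and the Bmal1-/- arrays 90.0 and 90.2, below all of them. From 5 to 10 Mb, where the WT profile had its lowest bin, the WT arrays had 63.2, 63.5, 64.4, 64.6 and 62.7, and the Bmal1-/- arrays 67.1 and 67.9, above all of them. From 10 to 20 Mb the WT arrays lay between 72.0 and 73.2, and Bmal1-/- had 74.0 and 74.6.

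From 20 to 50 Mb the order was the same, with 69.4 to 71.1 in WT and 72.1 and 72.8 in Bmal1-/-. In the bin from 2 to 5 Mb the arms were separated by little, with 72.0 to 73.5 in WT and 73.8 in both Bmal1-/- arrays. In these 5 bins the arms did not overlap, so that each reached an exact two-sided permutation p of 0.0952, the smallest that 2 against 5 arrays can give. Within 1 Mb they overlapped, with 96.8 to 97.7 in WT against 97.4 and 95.8. They overlapped again from 50 to 100 Mb, where Bmal1-/- CT22 had 69.4, below the WT range of 71.4 to 72.4, and Bmal1-/- CT34 had 72.1 (exact permutation p = 0.286).

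These separations were not shared by every measure. On the log2 scale the arms were apart from 5 to 10 Mb, with 0.83 to 0.92 in WT against 1.03 and 1.33, and from 10 to 20 Mb, and they overlapped in the other bins (exact permutation p = 0.667 from 1 to 2 Mb). By the share of probes above each array's 95th percentile, Bmal1-/- was below every line 1 array within 1 Mb, with 85.1% and 80.1% against 87.0% to 89.5%. The same held from 1 to 2 Mb, with 61.0% and 54.2% against 62.7% to 67.8%. From 20 to 50 Mb the order by this share was opposite to that by percentile, with 28.2% and 28.7% in Bmal1-/- and 28.9% to 31.0% in WT. From 2 to 20 Mb the arms overlapped on it.

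The sides of the viewpoint differed in where the separation lay. Within 1 Mb, Bmal1-/- was below every WT array towards the centromere (97.4 and 95.9 against 97.6 to 98.4) and overlapped distally. From 1 to 2 Mb it was again below them towards the centromere (88.5 and 90.2 against 91.5 to 92.4). On the distal side the arms overlapped there (91.6 and 90.2 against 90.9 to 93.1). From 2 to 5 Mb they were apart towards the centromere (68.6 and 68.0 against 66.1 to 67.7) and overlapped distally. Towards the centromere, the bin from 5 to 10 Mb had 70.2 to 73.3 in WT and 75.8 and 77.7 in Bmal1-/-. From 10 to 20 Mb the arms overlapped, with 84.5 to 85.6 in WT against 84.3 and 85.2. On the distal side, Bmal1-/- arrays were above every WT array in each bin from 5 to 50 Mb. From 10 to 20 Mb distal the WT arrays had 61.7, 61.8, 63.2, 61.7 and 61.5, and the Bmal1-/- arrays 65.6 and 65.9. No test compared the sides with each other.

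**Figure D1:**
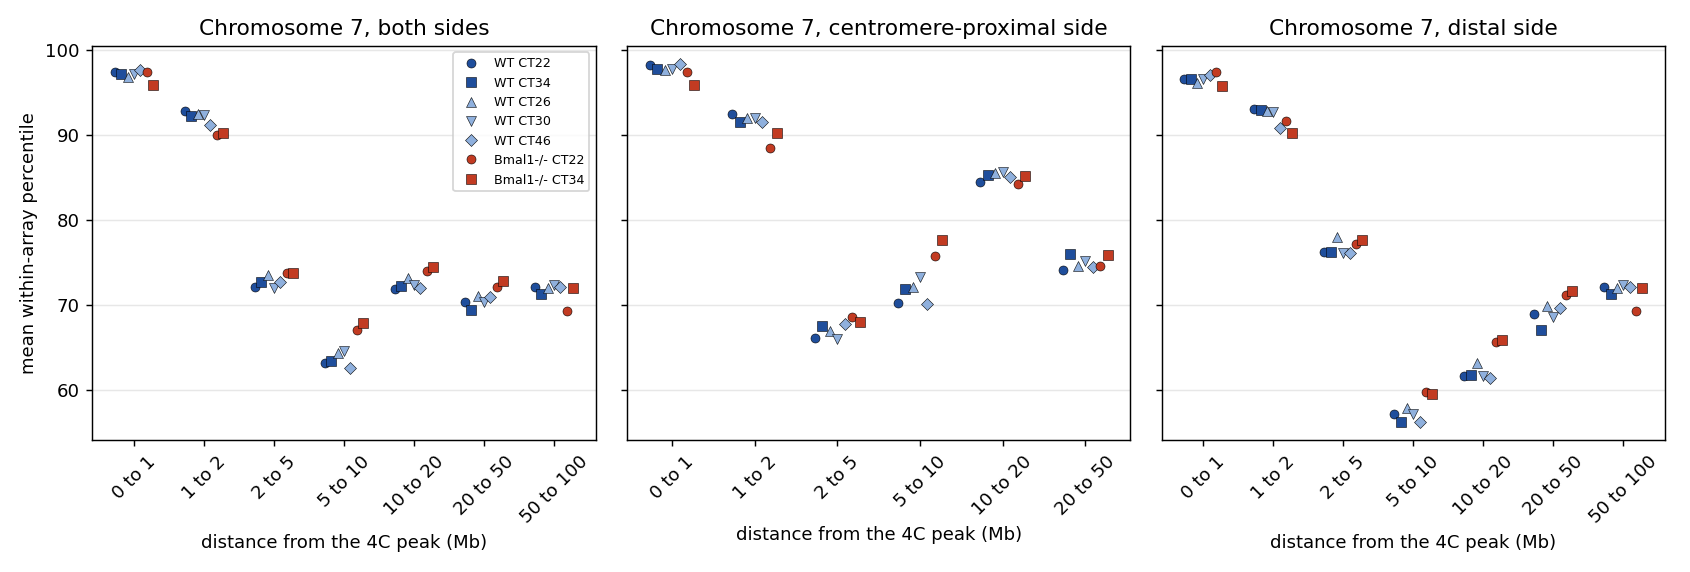
Mean within-array percentile of chromosome 7 probes (vertical axis) by distance from the 4C peak in Mb (horizontal axis), for both sides together, the side towards the centromere and the distal side. Each point is 1 array, blue for WT line 1 and red for Bmal1-/-. With both sides together, the Bmal1-/- arrays lie above the WT arrays from 5 to 10 Mb, at 67.1 and 67.9 against 62.7 to 64.6. From 1 to 2 Mb they lie below.

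The steepness was summarized as the slope of 168 windows of 100 kb, from 1 to 10 Mb, on the log2 of distance. Per doubling of distance, the percentile changed by -10.5, -10.3, -10.03, -9.42 and -10.2 points in WT CT22, CT34, CT26, CT30 and CT46, and by -7.95 and -7.34 in Bmal1-/- CT22 and CT34. Both Bmal1-/- slopes were flatter than the 5 slopes of line 1. Line 2 had slopes of -7.85 and -6.32, so this WT line was as flat as Bmal1-/- or flatter. Flatness therefore did not set the genotypes apart across both WT lines. Line 2 also had a narrower signal and a lower level on chromosome 7, and their part in its slope was not tested. The difference from the time-matched arrays was 2.72, with an exact two-sided permutation p of 0.0952, and it was 2.52 at CT22 and 2.92 at CT34. Over 1 to 100 Mb, where the WT profile is not a steady decay, the difference had the opposite sign, at -0.614 (exact permutation p = 0.0952).

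Along chromosome 7, the contrast between strong and weak windows was lower in both Bmal1-/- arrays than in both WT arrays. By mean percentile, most of the difference was in the weak windows. The 27 strongest and 27 weakest of 133 windows of 1 Mb were chosen on WT CT26, CT30 and CT46, which then stayed out of the comparison. The contrast between them was 37.6 in WT CT22 and 34.6 in WT CT34, and 31.4 and 33.0 in Bmal1-/- CT22 and CT34. The arms did not overlap, with a difference of -3.83. The exact two-sided permutation p of 0.333 is the smallest that 2 against 2 arrays can give, so this design cannot pass 0.05.

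The weak windows had 52.1 and 53.3 in WT and 56.3 and 55.8 in Bmal1-/-, without overlap. The strong windows had 89.7 and 87.9 in WT and 87.7 and 88.9 in Bmal1-/-, with overlap. Of the 27 weak windows 20 were higher in Bmal1-/-, and of the 27 strong ones 7 were, where 69 of all 133 windows were higher. The difference in contrast was -6.16 at CT22 and -1.51 at CT34. In WT line 2 the contrast over these windows was 13.6 and 17.7, below that of either Bmal1-/- array. The part of its narrower signal in this was not tested. Near the top of the scale a percentile has little room to move. The contrast was therefore also taken on the share of probes above the 95th percentile, with windows chosen on that share. It was 47.4 percentage points in Bmal1-/- and 53.9 in time-matched WT, a difference of -6.46.

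Windows chosen on WT arrays favour a high contrast in WT cells of the same line, so the choice was repeated on line 2. The contrast then was 31.3, 29.7, 30.4, 32.1 and 30.5 in the 5 WT line 1 arrays and 24.1 and 27.0 in Bmal1-/-. All 5 WT arrays were above both Bmal1-/- arrays, by an exact two-sided permutation test with p = 0.0952, the smallest possible. The difference from the time-matched arrays was -4.99. The weakest 20% had 55.0 to 56.7 in line 1 and 60.8 and 59.3 in Bmal1-/-, and the strongest 20% had 85.8 to 87.1 against 84.9 and 86.2. The SD over all 133 windows, which needs no choice of windows, was 12.6 to 13.6 in WT line 1 and 11.9 and 12.1 in Bmal1-/- (exact permutation p = 0.0952). Line 2 had 6.51 and 7.73, below both Bmal1-/- arrays.

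**Figure D2:**
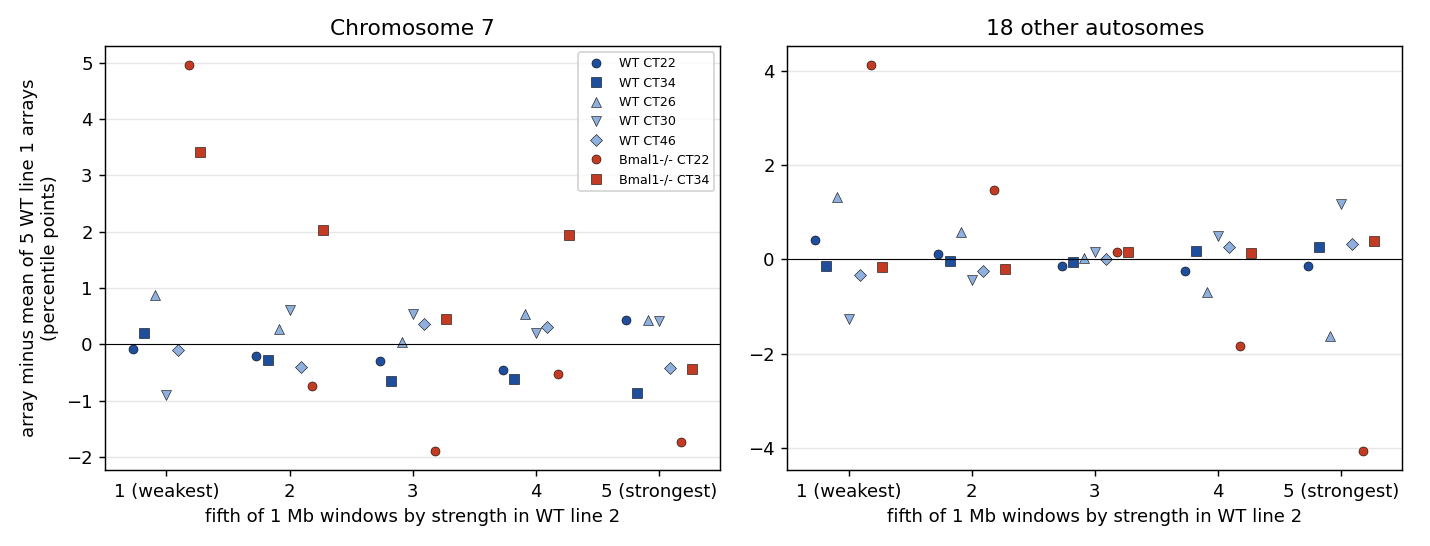
Difference of each array from the mean of the 5 WT line 1 arrays in percentile points (vertical axis) for 5 equal classes of 1 Mb windows ordered by their strength in WT line 2 (horizontal axis), on chromosome 7 and on the other 18 autosomes. Blue points are WT line 1 and red points Bmal1-/- arrays. In the weakest class of chromosome 7 both Bmal1-/- arrays are high, and on the other autosomes Bmal1-/- CT22 alone leaves the WT arrays.

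Single windows were tested with limma, with 3 arms over the 7 arrays and 2383 autosomal windows of 1 Mb. After Benjamini-Hochberg adjustment 15 windows passed 0.05 (0.629%), 11 of them higher in Bmal1-/- (0.462%). An unadjusted p under 0.05 was reached by 396. Of the 15, 7 lay on chromosome 7, which has 137 of the windows tested, and all 7 were higher in Bmal1-/-. The median difference over all windows was 0.0390.

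All 7 were below the chromosome 7 median in WT cells, at ranks 90 to 133 of 133 by strength in WT CT26, CT30 and CT46, and 4 of them were among the 27 weakest. Their time-matched WT means ranged from 44.2 to 59.6 and their Bmal1-/- means from 56.7 to 73.8, so they were nearer to the chromosome 7 median of 71.9 over windows in Bmal1-/-, or just above it. Each window was also counted in 10 pieces of 100 kb, and 68 of the 70 pieces were higher in Bmal1-/-. These windows were called for a high mean of the same probes, so this count is no further support for them. The share of pieces higher over all windows was not counted. The count shows only that the differences did not come from 1 piece.

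The window from 94000001 to 95000000, 49.2 Mb distal, had the smallest p. It stood at 47.6, 50.0, 49.9, 49.0 and 51.2 in WT CT22, CT34, CT26, CT30 and CT46, and at 64.8 and 64.1 in Bmal1-/- CT22 and CT34. The arms were far apart against a spread of a few points within each, with a difference of 15.6 ± 1.93 (SE; limma adjusted p = 0.00192). The share of its probes above the 95th percentile was 14.4% in Bmal1-/- and 5.48% in the time-matched WT arrays. Its neighbour from 93000001 to 94000000 was the weakest of the 133 windows in WT CT26, CT30 and CT46. It had 44.1, 44.3, 48.1, 43.7 and 50.7 in WT and 61.2 and 60.4 in Bmal1-/-, a difference of 16.6 ± 2.26 (SE; limma adjusted p = 0.0025).

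A second pair lay nearer to Dbp. From 60000001 to 61000000, 15.2 Mb distal, WT arrays had 59.1, 58.7, 55.4, 53.2 and 55.5 and Bmal1-/- arrays 72.7 and 72.3. From 61000001 to 62000000 they had 58.1, 56.1, 65.9, 60.4 and 63.1 against 74.4 and 73.2. In this last window the highest WT array was CT26, whose name has the same style as those of Bmal1-/-. The differences were 13.6 ± 1.89 (SE; limma adjusted p = 0.0025) and 16.7 ± 2.14 (SE; limma adjusted p = 0.00192). Windows from 59000001 to 63000000 formed an unbroken run of 4 in which both Bmal1-/- arrays exceeded every WT array, with a mean difference of 9.78.

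The other 3 called windows stood alone. From 36000001 to 37000000, the only one on the centromere side, 8.75 Mb from the peak, WT arrays had 59.1 to 61.7 and Bmal1-/- arrays 70.0 and 74.6. From 88000001 to 89000000 they had 55.5 to 59.0 against 68.5 and 67.0. From 77000001 to 78000000 they had 45.2 to 53.0 against 56.8 and 56.6. The arms did not overlap in any of these 3, and the differences were 12.7, 11.9 and 10.9 (limma adjusted p = 0.00916, 0.00916 and 0.0288). From 77000001 WT line 2 had 54.0 and 54.5, between line 1 and Bmal1-/-. In the other called windows of chromosome 7, line 2 lay within or below the line 1 range. Its level was lower over this chromosome as a whole.

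**Figure D3:**
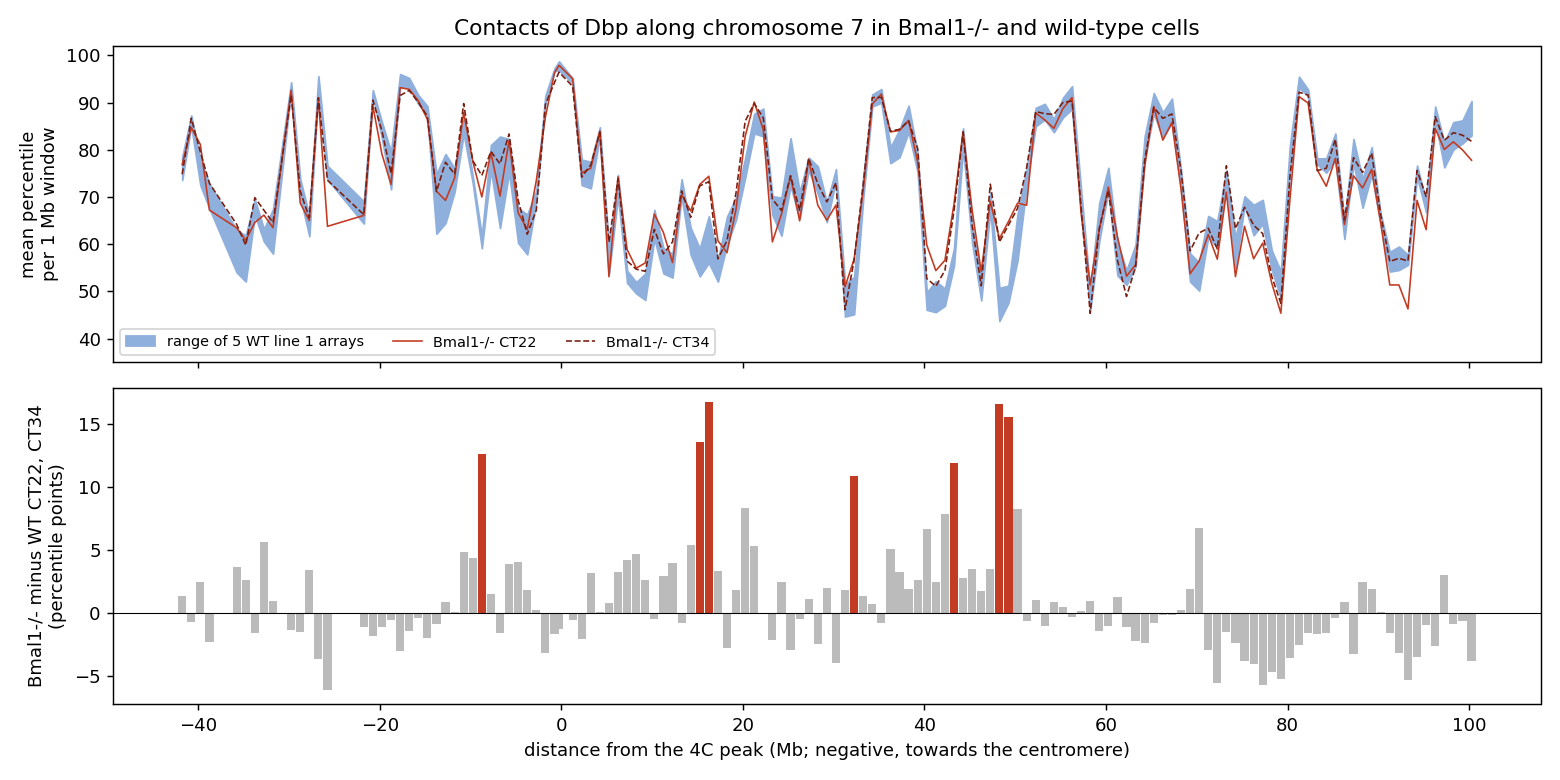
Upper panel, mean percentile of 1 Mb windows on chromosome 7 (vertical axis) by distance from the 4C peak in Mb (horizontal axis), with the range of the 5 WT line 1 arrays as a blue band and both Bmal1-/- arrays as red lines. Lower panel, Bmal1-/- minus time-matched WT, with the 7 windows past the limma threshold in red. The red bars, from 10.9 to 16.7 points, stand at windows below the WT median of 71.9.

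How far the calls rest on the scale and on single arrays was measured by refitting. On the log2 scale the 7 windows had differences of 0.49 to 0.93, all higher in Bmal1-/-, and 1 of the 7 passed. With the share of probes above the 95th percentile all 7 were again higher, by 5.14 to 10.9 percentage points, and none passed (limma adjusted p of at least 0.125, with 121 of 2383 windows at an unadjusted p under 0.05). Without WT CT22 or without WT CT34, which leaves 1 time-matched array, no window passed, with 241 and 157 at an unadjusted p under 0.05. Without Bmal1-/- CT34, 243 windows passed, and without Bmal1-/- CT22, 19 passed. Both sets held all 7, but each fit has 1 Bmal1-/- array, which is assumed to vary as the WT arrays do. Without WT CT46, 9 passed, 6 of the 7 among them. With the lines paired by circadian time, in the 4 time-matched arrays with time as a term, 55 passed and held all 15. These 4 arrays are also in the main fit. With time as a term they leave little to estimate each window's own spread, so that fit leans on the spread pooled over windows.

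Few or none of the calls passed with the style of the array name as a term. With this style as a term beside the 3 arms, an alternative chosen after seeing the data, no window passed (limma adjusted p of at least 0.387, with 160 at an unadjusted p under 0.05). The differences of the 7 windows were then 6.62 to 15.9, all higher in Bmal1-/-. In that fit the style is estimated only from WT CT26 against CT30 and CT46, which makes each difference less precise. The fit therefore cannot tell an effect of the style from lost precision. With the style as a term and the 5 WT arrays joined in 1 arm, which sets Bmal1-/- against WT CT26 alone, 2 windows passed, those from 60000001 and from 94000001 (limma adjusted p = 0.012 for both). The same joined arm without the style gave 85.

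By the simpler rule that both Bmal1-/- arrays lie outside the range of the 5 WT arrays, 283 of the 2383 windows (11.9%) were above and 311 (13.1%) below. On chromosome 7, more than 2 Mb from the peak, 25 of 133 windows (18.8%) were above and 18 (13.5%) below. Among the 25 above, the longest run was that of 4 windows from 59000001. Among the 18 below, it was a run of 5 windows from 122000001 to 127000000, with a mean difference of -4.35. None of the 18 passed limma's threshold.

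The strongest distant contacts of Dbp had slightly lower levels in Bmal1-/- cells, none of them past the threshold. The 8 strongest windows in WT CT26, CT30 and CT46 were 6 windows between 15000001 and 30000000 and 2 between 126000001 and 128000000. In all 8 the Bmal1-/- mean was below that of the time-matched WT arrays, by 0.41 to 3.65 points, and 6 of the 8 lay below the whole WT range. The largest of these differences was from 18000001 to 19000000, where WT arrays had 94.5, 94.8, 92.7, 95.6 and 95.4 and both Bmal1-/- arrays 91.0.

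Near the top of the scale a percentile has little room to move, and the share of probes above the 95th percentile shows the same windows with more spread. In the 8 windows this share was 65.6% to 77.2% in time-matched WT and 57.4% to 66.3% in Bmal1-/-, lower by 3.85 to 15.7 percentage points in all 8. The differences in mean log2 ratio were also below 0 in all 8. These windows were chosen for strength on other arrays of the WT line, which raises WT values in them. Among the 4 weakest windows, those from 85000001 and 87000001 were above the WT range with limma adjusted p = 0.194 and 0.103, and the one from 76000001 overlapped, with 44.7 to 51.6 in WT against 51.0 and 46.1.

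Differences of more than 5 points were rare between averages of WT arrays. Averages of WT CT22 and CT34 were within 5 points of those of any pair among CT26, CT30 and CT46 in all but 1 to 5 of the 137 windows on chromosome 7, whereas the Bmal1-/- average differed by more in 21, with 16 higher and 5 lower. On the other autosomes the counts were 15 to 22 of 2246 between WT pairs and 318 for Bmal1-/-. Single arrays against the WT CT22 and CT34 average differed by more than 5 points in 719 windows there for Bmal1-/- CT22, 275 for Bmal1-/- CT34 and 58 to 154 for WT CT26, CT30 and CT46. The differences at CT22 and at CT34, which share no array, correlated across windows with r = 0.571 on chromosome 7 and 0.359 elsewhere, and by rank with rho = 0.350 and 0.335, as a description over windows that share probes, base composition and line.

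Off chromosome 7 the contrast between strong and weak windows was low in 1 of the Bmal1-/- arrays and not in the other. Over the 18 other autosomes, the strongest and weakest 20% of 2246 windows differed by 18.5 and 18.9 in WT CT22 and CT34. In Bmal1-/- CT22 they differed by 10.1, and in Bmal1-/- CT34 by 19.5. The mean difference was -3.89 (exact permutation p = 1.00), and without Bmal1-/- CT22 it was 0.838. On the log2 scale it was 0.0797. With windows chosen on line 2 the contrast was 10.4 to 15.7 in line 1, 5.09 in Bmal1-/- CT22 and 13.9 in Bmal1-/- CT34 (exact permutation p = 0.381 for 2 against 5 arrays).

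The 6 strongest windows off chromosome 7 lay on chromosomes 10, 11 and 19, and none passed (limma adjusted p of at least 0.343). From 79000001 to 80000000 on chromosome 10, WT arrays had 79.8, 73.5, 75.7, 78.7 and 77.1, and Bmal1-/- CT22 and CT34 had 65.5 and 76.1. Bmal1-/- CT22 was below every WT array in 4 of the 6 windows, and Bmal1-/- CT34 was within the WT range in 3 of them.

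The 8 windows called off chromosome 7 were 4 higher and 4 lower in Bmal1-/-. Windows at or below the middle of the WT arrays, on chromosome 13 (from 90000001 and from 111000001) and chromosome 15 (from 42000001 and from 56000001) were higher, and windows on chromosome 4 (from 141000001, 151000001 and 152000001) and chromosome 16 (from 10000001) were lower. From 90000001 to 91000000 on chromosome 13, WT arrays had 41.2, 36.8, 41.2, 41.7 and 42.9 and Bmal1-/- arrays 53.6 and 50.1. The arms did not overlap, with a difference of 12.9 ± 2.13 (SE; limma adjusted p = 0.00983). From 152000001 to 153000000 on chromosome 4 the WT arrays had 57.5, 62.7, 55.3, 58.6 and 56.3 and the Bmal1-/- arrays 41.0 and 48.6. Here the Bmal1-/- arrays were both low and apart from each other, with a difference of -15.3 ± 2.60 (SE; limma adjusted p = 0.0115).

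In all 4 lower windows Bmal1-/- CT22 was the lowest array. Their log2 differences were small, from -0.17 to -0.07, and their shares of probes above the 95th percentile were under 4% in both arms. These windows thus differed in the middle of the distribution and not in strong contacts. In the chromosome 16 window WT line 2 had 49.9 and 50.1, between the Bmal1-/- arrays at 47.6 and 52.2. Line 1 had 57.3 to 61.4 there, so this low level was not particular to Bmal1-/-. In the other called windows off chromosome 7, line 2 lay on the line 1 side of both Bmal1-/- arrays. In some of them it was outside the line 1 range. With an array left out, the count of these 8 that still passed ranged from 0 to 8. Without Bmal1-/- CT22, 5 of the 8 passed, and with the name style as a term, in either form, none did.

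**Figure D4:**
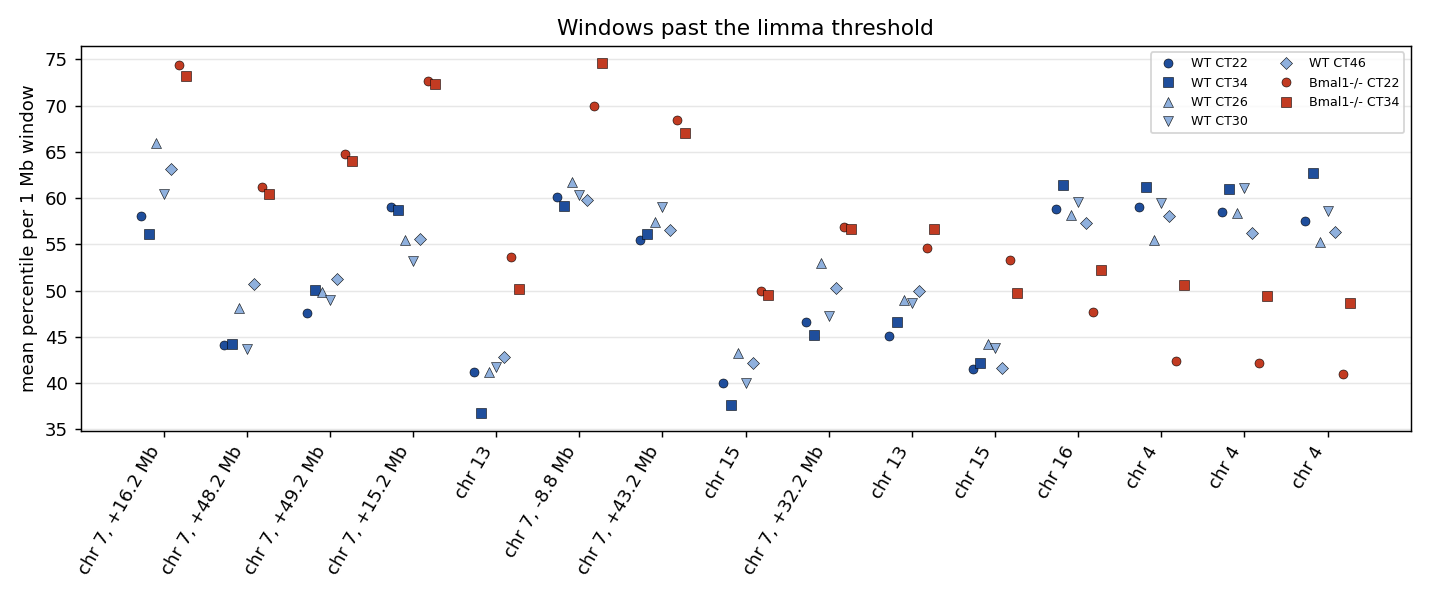
Mean percentile (vertical axis) of the 15 windows of 1 Mb past the limma threshold, ordered by the difference Bmal1-/- minus time-matched WT (horizontal axis, labelled by chromosome and, on chromosome 7, by distance from the 4C peak). Each point is 1 array, blue for WT line 1 and red for Bmal1-/-. In each window both Bmal1-/- arrays lie outside the range of the 5 WT arrays.

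The level of whole autosomes differed by small amounts that were large against the spread of the WT arrays. With limma over the 19 autosomes, 12 passed (63.2%), of which 7 were higher and 5 lower in Bmal1-/-. Chromosome 10 had 45.8, 45.4, 46.7, 46.3 and 46.5 in WT CT22, CT34, CT26, CT30 and CT46 and 48.6 and 48.5 in Bmal1-/-. This was the largest difference, at 2.95 ± 0.232 (SE; limma adjusted p = 0.000184). WT line 2 had 49.6 and 49.3 there, above both Bmal1-/- arrays, so a level above line 1 was not particular to Bmal1-/-. On every autosome but chromosome 7, line 2 lay between 48.4 and 51.3. Its value on chromosome 10 was thus near the middle of its own arrays. Chromosome 15 followed, with 47.1 to 47.7 in WT and 49.7 and 50.0 in Bmal1-/-, a difference of 2.49 ± 0.239 (SE; limma adjusted p = 0.000218). Here WT line 2 had 49.0 and 48.9, between the line 1 and the Bmal1-/- arrays.

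Among the lower autosomes, chromosome 14 had 48.7 to 49.5 in WT and 47.6 and 46.8 in Bmal1-/-, and chromosome 2 had 49.7 to 50.1 against 48.1 in both Bmal1-/- arrays. WT line 2 had 48.5 and 48.8 on chromosome 14 and 50.0 and 49.9 on chromosome 2, above both Bmal1-/- arrays. In all 12 autosomes both Bmal1-/- arrays lay outside the WT range. Chromosomes 19, 13, 5, 6 and 18 were higher by 0.66 to 1.96, and chromosomes 9, 4 and 16 were lower by 1.65 to 1.71. WT line 2 was above both Bmal1-/- arrays on chromosomes 6 (49.5 and 49.3) and 18 (50.3 and 50.1). On chromosome 9 it had 50.4 and 50.5, between them. On chromosomes 19, 13, 5, 4 and 16 it was on the line 1 side of both. Ranks within an array have a fixed mean, so rises on some chromosomes go with falls on others. The 12 calls are therefore not independent. Chromosome 7 was not among the 12, with a difference of 1.09 ± 0.482 (SE; limma adjusted p = 0.092).

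The share of probes above the 95th percentile gave another picture. By this measure no autosome passed (limma adjusted p of at least 0.498, 1 of 19 at an unadjusted p under 0.05), and 4 of the 12 had the same sign of difference. On the log2 scale all 19 differences were above 0, from 0.06 to 0.17 with a median of 0.10, and 4 autosomes passed. Set against that median, 11 of the 12 lay on the side given by the percentiles, so the order of the autosomes was largely shared by both scales. Without Bmal1-/- CT22, 12 autosomes passed, 11 of them among the 12. With the name style as a term beside the 3 arms 10 passed, and with the WT arrays joined 9.

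**Figure D5:**
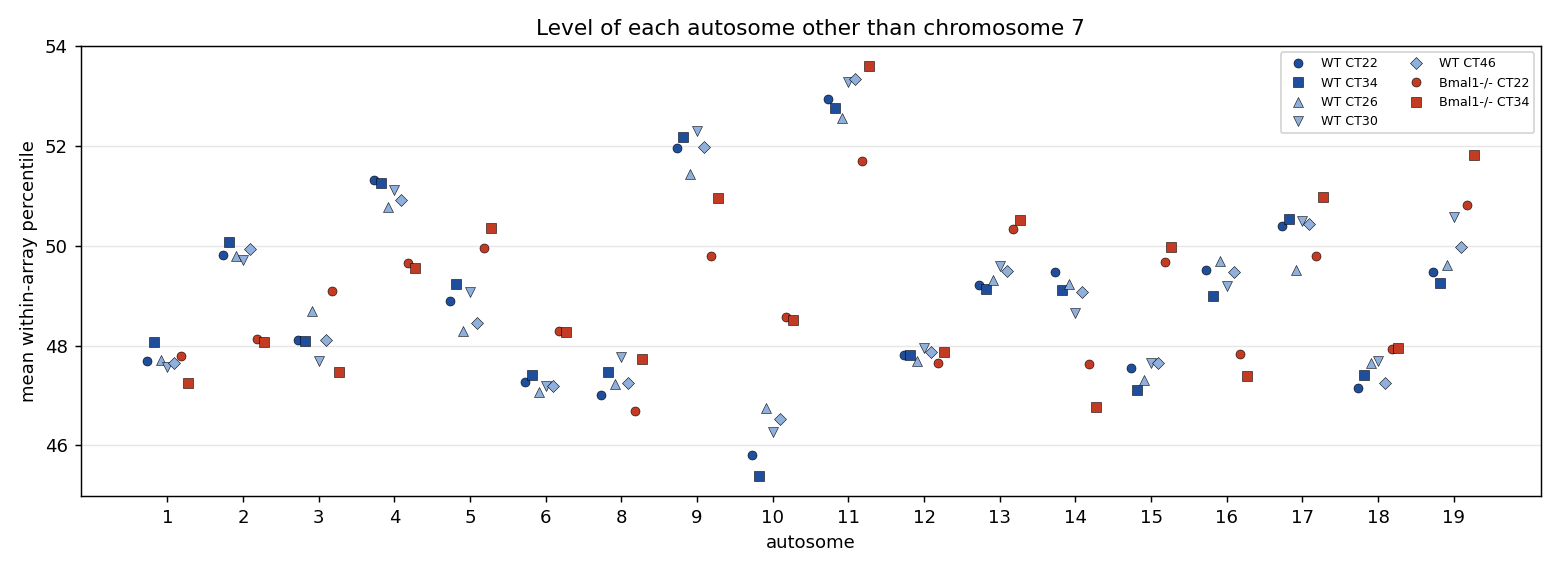
Mean within-array percentile (vertical axis) of each autosome other than chromosome 7 (horizontal axis). Each point is 1 array, blue for WT line 1 and red for Bmal1-/-. Chromosomes 10 and 15 show Bmal1-/- arrays above all WT arrays, and chromosomes 2 and 14 below.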

How the data were processed

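The arrays, windows and lists were chosen with earlier results of these data known. Per the file headers, the authors deposited a log2 ratio (Cy5 over Cy3) for each probe, after their software had shifted each array by a biweight mean. The log base is that software's convention and is not written in the files. No source used here names the build, the background correction or a filter. No file gives read depth. The number of arrays limits the precision.

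Probes were ranked within each array and averaged in windows of 1 Mb (at least 20 probes) or 100 kb (at least 5). Windows and autosomes were fitted with limma 3.58.1 (lmFit, eBayes), with 3 arms: Bmal1-/-, WT CT22 and CT34, and the other WT arrays. Single values were compared by exact permutation over arrays. Whether arrays of a line came from separate cultures is not stated, so p-values measure the spread between these arrays. On simulated data with 200 of 2383 windows changed, the window fit recovered 17.9% of changes of 5 points, 71.6% of 10 and 87.9% of 15, and 4.07% of its calls were false. The simulation drew independent normal noise for each window and array, without effects of array, line or name style. Its rates therefore do not carry over to the calls on the real arrays. The windows named were those of smallest p (12 on chromosome 7 and 8 elsewhere), the 8 strongest and 4 weakest of chromosome 7, and the 6 strongest elsewhere, in WT CT26, CT30 and CT46. Alternatives changed the scale, window size, average, probe minimum, arms, name-style term, choice of windows and distance range, and left out each array. Probes on chromosomes 20 and 21 were ranked but not reported.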

Additional observations from a re-analysis of the deposited data

Results flagged for a closer look

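The contrast between strong and weak windows off chromosome 7 moved in opposite directions at the times compared: Bmal1-/- minus WT was -8.38 percentile points at CT22 and 0.60 at CT34, with 1 array per line and time, and the difference between the times was not tested. Bmal1-/- CT22 is also the array with the lowest correlations with the WT arrays off chromosome 7, and the part of that array in the difference was not tested.

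Within WT line 1, the mean percentile of chromosome 1 was 48.1 in CT34, with 47.6 to 47.7 in the other 4 arrays. On chromosome 17 it was 49.5 in CT26, with 50.4 to 50.5 in the others. Each array lay far from the rest of its group relative to the group's range. Of 28 groups of 5 values examined in this way, 2 stood out, and chance gives about 1 in 20. Neither chromosome passed the comparison of Bmal1-/- with WT.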

How the results depend on the processing

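The 15 called windows became 1 on the log2 scale, 0 with the share of high probes, 6 with medians over probes, 9 with each window centred on its chromosome's median and 0 with the name style as a term beside the 3 arms, the last pair of alternatives being chosen after seeing the data. They became 55 with the lines paired by time (4 time-matched arrays, time as a term, where 11 autosomes passed), 85 with all 5 WT arrays as 1 arm (2 when the name style was added to that fit), 35 with line 2 as an arm of its own and 57 with the trend and robust options. With 1 array left out the number ranged from 0 to 243. The called autosomes went from 12 to 4 on the log2 scale and to 0 with the share of high probes, and ranged from 9 to 13 with 1 array left out. The difference in chromosome 7 strength was reversed with the share of high probes (-1.19 percentage points), and ranged from 0.339 to 1.83 with 1 array left out. That in slope was reversed over 1 to 100 Mb (-0.614), and ranged from 2.42 to 3.02 with 1 array left out. The autosome contrast was reversed on the log2 scale (0.0797) and without Bmal1-/- CT22 (0.838), and ranged from -8.61 to 0.838 with 1 array left out. The chromosome 7 contrast kept its sign in all 19 alternatives, from -5.35 to -2.31 with 1 array left out. The cause of these changes was not tested, beyond the fewer arrays in fits that leave one out.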
